A study of Mus musculus with 6 samples.

Results

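Genes that mark lymphatic or venous endothelium were followed in sorted endothelial cells of mouse embryos. They were picked by symbol from the table of read counts, namely Prox1, Pdpn, Reln, Mmrn1, Nr2f2, Flrt2 and Nt5e, and make up 7 of its 23420 genes. The cells came from whole embryos at embryonic day 12.5 of the strain Csf1r-iCre;RosatdTomato, in which the Csf1r promoter drives a Cre recombinase (iCre) and recombination switches on the red protein tdTomato from the Rosa locus. All cells were sorted as PECAM1+ CD45- CD11b- KIT-, that is, carrying an endothelial surface protein and lacking proteins of blood cells, and were then split into a tdTom+ fraction and a tdTom- fraction of 3 libraries each. Both fractions carry the same transgenes and came from 3 embryos. They were parted by the reporter, so that tdTom+ stands for past or present activity of the Csf1r promoter. Csf1r encodes a growth factor receptor of macrophages. The comparison asks how endothelial cells with that history compare with those that lack the reporter.

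Lymphatic vessels of the embryo arise in large part from veins. NR2F2, a nuclear receptor, holds venous identity by keeping the Notch programme of arteries low, and it acts together with SOX18 to switch on Prox1 in some venous cells. PROX1 is the homeobox transcription factor that sets lymphatic identity, and cells that keep it leave the vein and later carry surface proteins such as podoplanin. None of the 7 genes is private to vessels: Prox1 is also active in hepatoblasts, heart muscle and neural cells, Pdpn in mesothelium, Reln in neurons, Mmrn1 in megakaryocytes, and Nr2f2, Flrt2 and Nt5e in mesenchyme.

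The libraries held 8919887 to 11767956 counts. Levels are given in CPM, the counts of a gene relative to the library total after scaling by the TMM method. The 12 core endothelial markers summed to 8466 to 9015 CPM in tdTom+ and 8533 to 8612 CPM in tdTom- libraries. Both fractions thus expressed core endothelial genes. None of these markers passed the test, which does not show that their levels were equal, and the sums do not measure the purity of a fraction. The labels do not tie a library number to an embryo or state separate cultures or sorts, so p-values measure the spread between these libraries, which may be technical in part. In bulk RNA of sorted cells, fewer cells expressing a gene and less RNA of it per cell cannot be told apart.

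In the tdTom+ fraction, Prox1, Reln and Nr2f2 had higher read levels in every library than in any tdTom- library, and Nt5e had lower ones. None of the 7 genes passed the test across all genes (quasi-likelihood test of edgeR, p adjusted after Benjamini and Hochberg under 0.05 over 13142 genes), a threshold that 1.58% of all genes tested passed. All 7 were abundant enough to be tested. At an unadjusted p under 0.05 there were 4, with 3 higher and 1 lower, where 10.7% of all genes tested reached that level, 4.76% as higher and 5.94% as lower. DESeq2 called 2 of them higher, Prox1 and Reln, with 3.32% of its genes called and 1.39% called higher, and limma-voom called 0, with 1.13% called. The groups did not overlap in 4 of the 7 genes, against 17.2% of all genes tested, 7.88% as higher and 9.35% as lower. The median log2 fold change (tdTom+ over tdTom-) was 0.44 over the 7 genes and -0.00026 over all genes tested.

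**Figure D1:**
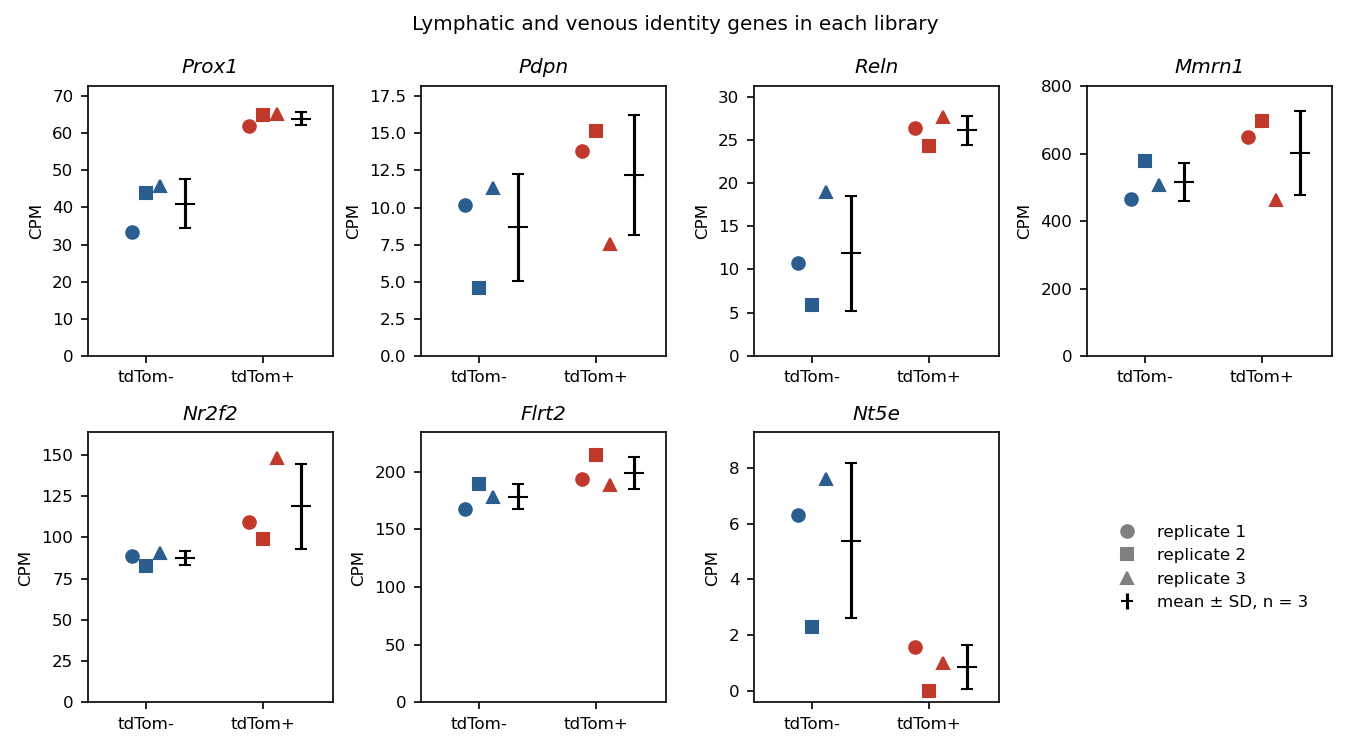
Level of each of the 7 genes in CPM (vertical axis, linear) in the tdTom- (blue) and tdTom+ (red) libraries, with the mean and SD of 3 libraries beside the points and a marker shape for each library number. The groups stand apart for Prox1, Reln, Nr2f2 and Nt5e, and overlap for Pdpn, Mmrn1 and Flrt2.

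The 3 genes whose tdTom+ values lay wholly above the tdTom- values are shown by the 250 bases before their transcription start, from RefSeq (build GRCm38.p6, which is mm10), so that the makeup of these promoters can be compared. A window was found for all 7 genes. Capitals mark matches to any of 6 short motifs searched on either strand. SOX factors are known for AACAAT and the GATA-binding proteins for AGATAA. The half-site of NR2F2 and related nuclear receptors is AGGTCA, and the GC box of SP and KLF factors is GGGCGG. The TATA box was searched as TATAAA and the E-box as CACGTG. A match to one motif did not overlap a match to another in these 3 windows. The Prox1 window printed is the upstream one of 2 in the table, at chr1:190170828-190171077 on the minus strand, Reln lies at chr5:22344706-22344955 and Nr2f2 at chr7:70366747-70366996, also on the minus strand.
Prox1: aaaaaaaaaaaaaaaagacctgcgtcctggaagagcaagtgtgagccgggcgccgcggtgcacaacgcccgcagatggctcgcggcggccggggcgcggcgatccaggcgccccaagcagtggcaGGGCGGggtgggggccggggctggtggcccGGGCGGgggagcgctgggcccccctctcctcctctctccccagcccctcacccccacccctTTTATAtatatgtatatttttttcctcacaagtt
Reln: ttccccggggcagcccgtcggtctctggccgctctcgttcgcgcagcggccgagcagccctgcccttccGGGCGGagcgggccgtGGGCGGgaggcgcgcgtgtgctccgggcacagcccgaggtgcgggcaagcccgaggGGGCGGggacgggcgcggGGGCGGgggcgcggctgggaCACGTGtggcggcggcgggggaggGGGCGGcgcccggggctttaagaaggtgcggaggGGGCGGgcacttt
Nr2f2: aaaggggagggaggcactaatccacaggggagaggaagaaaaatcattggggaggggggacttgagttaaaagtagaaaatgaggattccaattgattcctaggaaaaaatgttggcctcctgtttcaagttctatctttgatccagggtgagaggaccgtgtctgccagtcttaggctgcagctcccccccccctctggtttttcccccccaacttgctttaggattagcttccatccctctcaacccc
The 3 windows differed in base makeup. Reln had 80% G and C, Prox1 64.8% and Nr2f2 50%, beside a median of 52.4% over 32851 windows of that length. Reln held 6 GC boxes and the E-box, Prox1 held 2 GC boxes and the TATA motif in its reverse form, TTTATA, starting at position -34 from the start site, and Nr2f2 held no match. The GC box letters occur in 32.7% of all windows, the TATA letters in 12.4% and the E-box letters in 6.02%. Among the other genes, the half-site AGGTCA was found before Pdpn, at position -34, and AACAAT in the Mmrn1 window, at position -231. These letters occur in 14% and 9.42% of all windows. The Mmrn1 window, at chr6:60944067-60944316, lies inside the gene as the GENCODE M21 annotation gives it, from 60924976 to 60989378. By that annotation it is not sequence before the gene. The E-box was also found before Pdpn, at position -144, and Flrt2, at position -171. The Nt5e window held 4 matches to the GC box, at positions -223, -219, -24 and -19. The first 2 share letters, as do the last 2. All 250 bases of the Nt5e window lie in exons of the gene in GENCODE M21, so by that annotation they are transcribed. Such matches describe letters only and are not shown to be bound.

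Levels of different genes were compared per kilobase of merged exons in the GENCODE M21 annotation, since no source used here gives the annotation behind the counts. On this scale the order in tdTom+ cells was Mmrn1, Flrt2, Nr2f2, Prox1, Pdpn, Reln and Nt5e, with 103 ± 21.2, 25.8 ± 1.77, 13.8 ± 3.01, 7.62 ± 0.211, 6.71 ± 2.24, 1.1 ± 0.0705 and 0.101 ± 0.0930 CPM per kilobase (SD, n = 3). Only the neighbours Prox1 and Pdpn overlapped, with 7.38 to 7.76 and 4.16 to 8.35 CPM per kilobase. In tdTom- cells the first 5 genes kept these places, at 88.1 ± 9.63, 23.1 ± 1.38, 10.1 ± 0.500, 4.89 ± 0.786 and 4.78 ± 1.98 CPM per kilobase, and the lowest pair were Nt5e at 0.627 ± 0.322 and Reln at 0.500 ± 0.280 (SD, n = 3). There Prox1 and Pdpn overlapped, and so did Reln, with 0.246 to 0.801, and Nt5e, with 0.265 to 0.884 CPM per kilobase. Mmrn1 and Flrt2 were thus the most abundant of the 7 transcripts in either fraction, and the lymphatic regulator Prox1 lay far below Mmrn1.

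Prox1, the gene of the lymphatic regulator (chromosome 1, 190118035 to 190170714, mm10, minus strand), had 707, 710 and 697 counts in the tdTom+ and 346, 520 and 409 in the tdTom- libraries 1 to 3. That is 61.9, 64.9 and 65.1 CPM in tdTom+ and 33.5, 44.0 and 45.7 CPM in tdTom- libraries. The tdTom+ libraries lay close together and above all tdTom- libraries, of which library 1 was the lowest. The means of 64.0 ± 1.77 and 41.1 ± 6.60 CPM (SD, n = 3) gave a fold of 1.56. On the log2 scale the difference was 0.64 ± 0.15 (SE), with a 95% interval of 0.31 to 0.97, and missed the threshold (edgeR adjusted p = 0.0654). It passed without the low-count filter (edgeR adjusted p = 0.0487, with 1.44% of all genes called) and with DESeq2 (adjusted p = 0.00715). The authors' deposited table lists an adjusted p of 0.00716 for the same counts. Their notes name DESeq2, so this value is no separate support. When each of the 6 libraries was left out in turn, the log2 fold change lay between 0.52, without tdTom- replicate 1, and 0.72, and none of these 6 fits passed (edgeR adjusted p from 0.106 to 0.282). Prox1 shares 133 exon bases with Prox1os on the other strand, and reads of the pair cannot be told apart without strand.

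Markers of other tissues that express Prox1 were summed as well. The 13 hepatoblast markers summed to 174 to 204.5 CPM in tdTom+ and 232 to 466 CPM in tdTom- libraries, and the 13 cardiomyocyte markers to 30.7 to 45.4 and 48.2 to 71.8 CPM, without overlap in either set. Of the tested markers 0 of 10 and 0 of 6 passed, and 1 and 2 of them had a log2 fold change above 0. Trf and Dlk1 made up most of the hepatoblast sum in each library. The hepatoblast markers Afp, Alb and Ttr overlapped between the groups. They were highest in tdTom- replicate 3, at 54.3, 13.0 and 82.4 CPM, against at most 9.06, 3.17 and 3.45 CPM in tdTom+ libraries. The sums of the neural markers overlapped, at 449 to 467 and 451 to 481 CPM. Nes and Gap43 made up most of each sum. Nes had 205 to 211.5 CPM in tdTom+ and 207 to 222 CPM in tdTom- libraries, and Gap43 164 to 183 and 121 to 131 CPM. Of the 11 neural markers tested, 9 had a log2 fold change below 0, so the overlap does not speak for the other neural markers. The hepatoblast marker Serpina1a was at 0 in all tdTom+ libraries but had only 0, 0 and 2 counts in the tdTom- libraries, too few to be tested. No other marker of these sets was at 0 in every library of a group. Per 1000 CPM of the core endothelial markers, Prox1 stood at 7.36 ± 0.183 CPM in tdTom+ against 4.79 ± 0.754 CPM in tdTom- libraries (SD, n = 3), again without overlap. The core sums were much alike, at 8466 to 9015 CPM in tdTom+ and 8533 to 8612 CPM in tdTom- libraries. This ratio thus nearly repeats the CPM values and cannot show which cells carried Prox1.

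Nr2f2, the gene of the venous nuclear receptor (chromosome 7, 70351944 to 70366735, minus strand), had 1246, 1082 and 1586 counts in tdTom+ and 916, 975 and 811 in tdTom- libraries. Its CPM was 109, 98.9 and 148 against 88.7, 82.4 and 90.7. The tdTom- libraries were alike, and tdTom+ replicate 3 stood above the other two of its group. The log2 fold change was 0.44 ± 0.15 (SE), with a 95% interval of 0.12 to 0.77, and did not pass (edgeR adjusted p = 0.234), nor did it with DESeq2 (adjusted p = 0.0947). The log2 fold change was 0.25 without tdTom+ replicate 3 (edgeR adjusted p = 0.401) and 0.56 without tdTom+ replicate 2. The 15 mesenchymal and mural markers, from tissue that also expresses Nr2f2, summed to 287, 186 and 723.5 CPM in the tdTom+ libraries, highest in replicate 3 as for Nr2f2, and to 1269, 534.5 and 729 CPM in the tdTom- libraries; their part in the Nr2f2 level was not tested. The gene shares 643 exon bases with the opposite-strand transcript B130024G19Rik, which had 61, 97 and 53 counts in tdTom+ and 45, 53 and 21 in tdTom- libraries.

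Reln encodes reelin, a large secreted glycoprotein made by neurons and by lymphatic and hepatic sinusoidal endothelium (chromosome 5, 21884454 to 22344702, minus strand). It had 301, 266 and 296 counts in tdTom+ and 111, 69 and 170 in tdTom- libraries, or 26.4, 24.3 and 27.6 CPM against 10.8, 5.83 and 19.01 CPM. The tdTom+ values were tight, and the tdTom- values were spread widely, with replicate 3 nearest to the tdTom+ range. The fold was 2.21, the highest point estimate of the 7 genes, and the log2 fold change was 1.147 ± 0.35 (SE), with a 95% interval of 0.37 to 1.92, and did not pass (edgeR adjusted p = 0.19). DESeq2 called it (adjusted p = 0.0428), and the authors' deposited table lists the same adjusted p, 0.0428, which is likewise no separate support. Without tdTom- replicate 3 the log2 fold change was 1.65, and without tdTom- replicate 2 it was 0.81 (edgeR adjusted p = 0.0779 and 0.415).

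The sums of the 13 neural markers, from the other tissue known for Reln, overlapped between the groups but were mostly Nes and Gap43. No neural marker was at 0 in every library of a group. Of the 11 tested, Gap43, a gene of growing axons, passed and was higher in tdTom+ cells, by 0.47 on the log2 scale, a call kept only without tdTom+ replicate 2 when single libraries were left out (edgeR adjusted p of the other 5 fits 0.0501 to 0.147), 9 had a log2 fold change below 0, and their median was -0.62. Reln shares 246 exon bases with the opposite-strand gene Gm10475.

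Pdpn encodes podoplanin, a mucin-type membrane protein of lymphatic endothelium that binds the platelet receptor CLEC1B (chromosome 4, 143267431 to 143299564, minus strand). It had 158, 166 and 81 counts in tdTom+ and 105, 54 and 101 in tdTom- libraries. In CPM these were 13.8, 15.2 and 7.56 against 10.2, 4.57 and 11.3, so the groups overlapped and each held a low library, tdTom+ replicate 3 and tdTom- replicate 2. The log2 fold change of 0.50 ± 0.39 (SE) had a 95% interval of -0.38 to 1.37 (edgeR adjusted p = 0.75). It was 0.18 without tdTom- replicate 2, 0.31 without tdTom+ replicate 2 and 0.75 without tdTom+ replicate 3. The 8 mesothelial markers in the table summed to 101, 71.7 and 39.8 CPM in the tdTom+ and 58.9, 71.0 and 44.2 CPM in the tdTom- libraries, lowest within the tdTom+ group in replicate 3, as for Pdpn, but highest within the tdTom- group in replicate 2, where Pdpn was lowest; their part in the Pdpn level was not tested. Gpm6a made up most of each sum, with 68.15, 57.05 and 35.76 CPM in tdTom+ and 42.82, 57.74 and 36.34 CPM in tdTom- libraries. The order of the sums therefore does not speak for the other mesothelial markers. The defining marker Wt1 had at most 17 counts in a library.

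Mmrn1 encodes multimerin 1, a large adhesive protein stored in platelets and made by lymphatic endothelium (chromosome 6, 60924976 to 60989378, plus strand). It had 7427, 7635 and 4951 counts in tdTom+ and 4811, 6835 and 4535 in tdTom- libraries, or 651, 698 and 462 CPM against 466, 578 and 507 CPM. The tdTom+ replicates 1 and 2 were above every tdTom- library, and tdTom+ replicate 3 was the lowest of all 6. The log2 fold change of 0.22 ± 0.14 (SE, 95% interval -0.08 to 0.53) did not pass (edgeR adjusted p = 0.646), and it was 0.11 without tdTom+ replicate 2 and 0.38 without tdTom+ replicate 3. The 16 megakaryocyte and platelet markers, by contrast, summed to 584, 891 and 593 CPM in tdTom+ and 292.5, 317.5 and 273 CPM in tdTom- libraries. Vwf and Clec1b made up most of each tdTom- sum, and both overlapped between the groups. Vwf had 208 to 284 CPM in tdTom+ and 167 to 219.5 CPM in tdTom- libraries, and Clec1b 55.9 to 85.4 and 44.1 to 65.7 CPM. Pf4 had 36.9 to 95.6 CPM in tdTom+ and 3.68 to 7.94 CPM in tdTom- libraries, and Gp5 12.3 to 24.8 and 0.335 to 1.69 CPM. Of the 14 markers tested, 7 passed as higher and 0 as lower in tdTom+ cells, beside 0.769% and 0.814% of all genes tested. Their median log2 fold change was 2.79. DESeq2 called 11 of them and limma-voom 2, where these tools called 3.32% and 1.13% of all genes. The part of megakaryocytes and platelets in the Mmrn1 level was not tested.

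**Figure D2:**
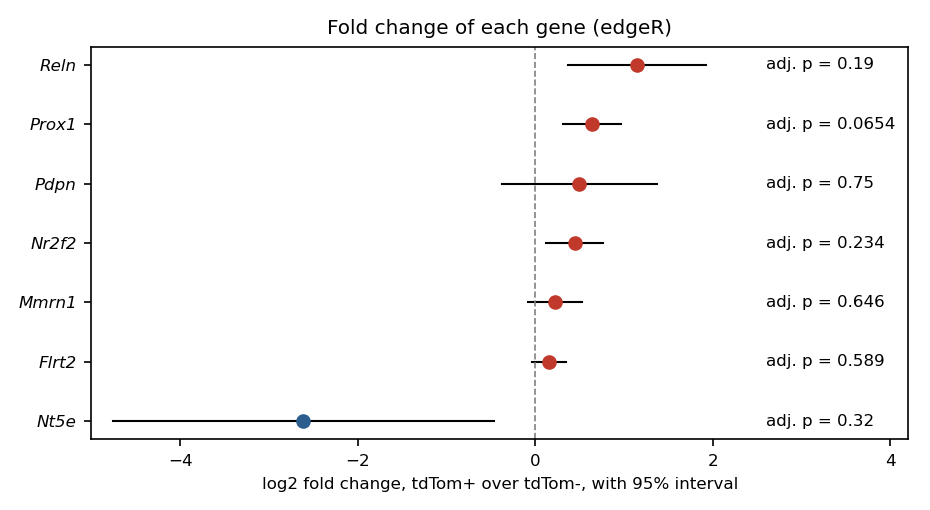
Log2 fold change (horizontal axis, tdTom+ over tdTom-) of each gene with its 95% interval, not adjusted for the number of genes, and the adjusted p of edgeR's quasi-likelihood test. The intervals of Reln, Prox1, Nr2f2 and Nt5e leave out 0, and no adjusted p is under 0.05.

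Flrt2 and Nt5e, both tied to endothelium and to mesenchyme, differed in abundance and precision. Flrt2, a leucine-rich repeat adhesion protein gene (chromosome 12, 95692226 to 95785215, plus strand), had 194, 214 and 188 CPM in tdTom+ and 168, 189 and 178 CPM in tdTom- libraries. The lowest tdTom+ library lay just under the highest tdTom- library. Its log2 fold change of 0.16 ± 0.09 (SE) had the narrowest 95% interval of the 7 genes, -0.03 to 0.35, and did not pass (edgeR adjusted p = 0.589), and it was 0.0996 without tdTom+ replicate 2.

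Nt5e encodes CD73, the surface enzyme that turns AMP into adenosine (chromosome 9, 88327197 to 88372092, plus strand). It had 18, 0 and 11 counts in tdTom+ and 65, 27 and 68 in tdTom- libraries, or 1.58, 0 and 1.03 CPM against 6.30, 2.28 and 7.60 CPM. All tdTom+ libraries were below all tdTom- libraries, and in tdTom+ replicate 2 a count of 0 allows up to 0.274 CPM, the level of 3 counts. The log2 fold change of -2.61 ± 0.97 (SE) had the widest interval, -4.76 to -0.47, and did not pass (edgeR adjusted p = 0.32; DESeq2 adjusted p = 0.0715). The mesenchymal and mural markers were at 534.5 to 1269 CPM in tdTom- and 186 to 723.5 CPM in tdTom+ libraries, with 0 of 14 tested passing, 14 of 14 with a log2 fold change below 0 and none at 0 in every library of a group; their part in the Nt5e level was not tested.

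**Figure D3:**
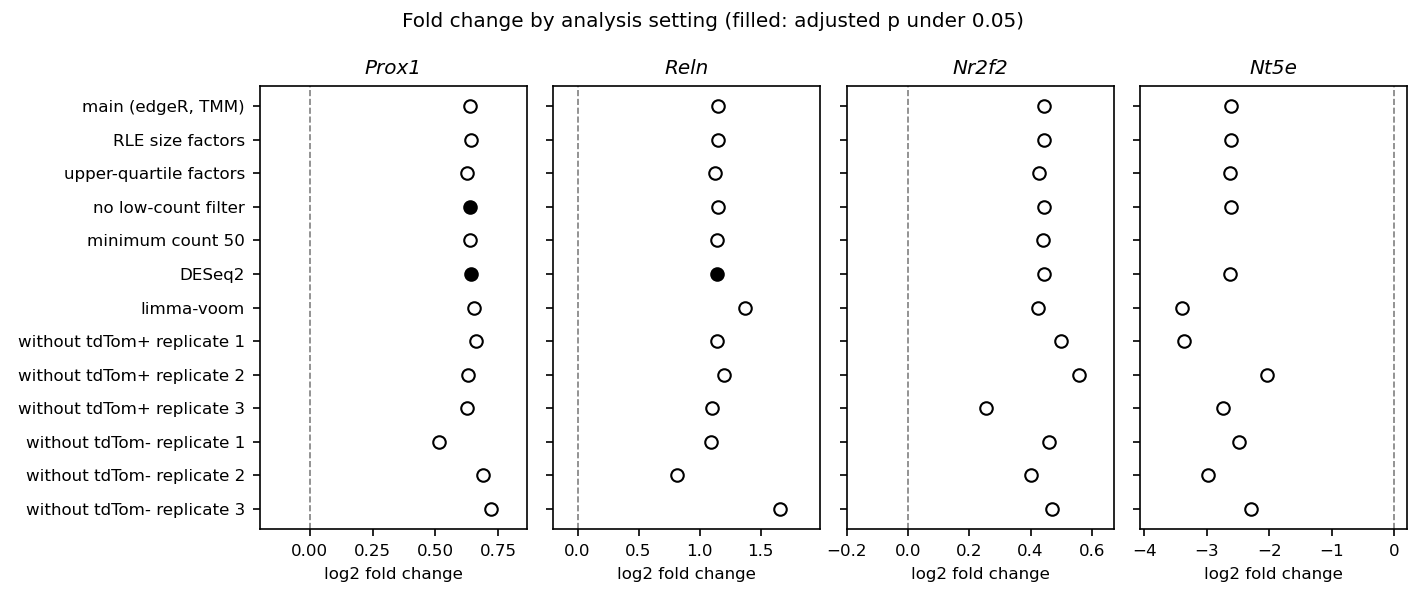
Log2 fold change (horizontal axes, a scale for each gene) of the 4 genes whose groups did not overlap, under the main analysis and 12 of the 13 alternatives, leaving out the replicate block; filled points have an adjusted p under 0.05. The sign is the same in every row shown, Prox1 is filled without the low-count filter and with DESeq2, and Reln with DESeq2; Nt5e has too few counts to be tested at a minimum count of 50.

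**Figure D4:**
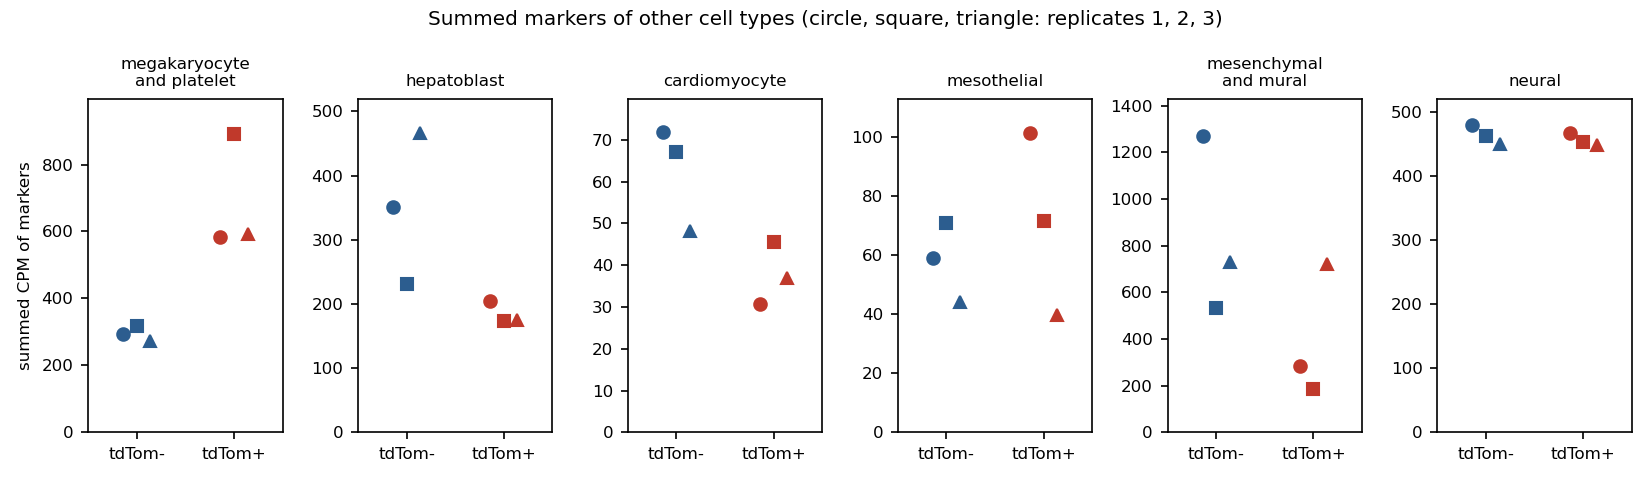
Summed CPM (vertical axes, linear, a scale for each panel) of markers of 6 other cell types in each library, blue for tdTom- and red for tdTom+. Megakaryocyte and platelet markers are higher and hepatoblast and cardiomyocyte markers lower in every tdTom+ library than in any tdTom- library, and the other 3 sets overlap.

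Across the 6 libraries the 7 genes did not follow a single pattern. Pearson's r of log2 CPM over the 6 libraries, which share the 2 groups and their depth, was 0.75 for Prox1 and Reln, 0.70 for Prox1 and Nr2f2, 0.73 for Reln and Nr2f2, and 0.83 for Mmrn1 and Flrt2. It was 0.32 for Prox1 and Pdpn and -0.21 for Mmrn1 and Nr2f2. Nt5e was below 0 with every other gene, down to -0.94 with Flrt2. The gene closest to Prox1 among 10075 compared was Cyb5 (r = 0.991), followed by Mrpl47 (0.990). The closest to Nr2f2 were Med21 and Jup (0.997 and 0.993), to Reln Ppap2c and Lgals3bp (0.992 and 0.991), to Pdpn Maff and Bahd1 (0.987 and 0.982), to Mmrn1 Rnf113a2 and Cpne8 (0.996 and 0.981), to Flrt2 Tmem194 (0.999) and to Nt5e Nckap5l and Sema6c (0.993 and 0.990). With 6 libraries, values this high arise for many genes and only describe these libraries.

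Among other genes of lymphatic endothelium, 5 receptor genes and 1 transcription factor gene were higher in tdTom+ cells. Of 25 such genes 23 could be tested, and 6 passed as higher and 0 as lower, beside 0.769% and 0.814% of all genes tested in each direction. The 6 were Lyve1, Stab1 and Stab2, scavenger or hyaluronan receptor genes also of liver sinusoids, Flt4, the receptor gene of the lymphatic growth factor VEGF-C, Nrp2, its co-receptor gene, and Maf, a transcription factor gene. Maf had 318, 288 and 347 counts in tdTom+ and 119, 86 and 64 in tdTom- libraries, a log2 fold change of 1.74 ± 0.25 (SE) and an adjusted p of 0.00678 by edgeR. Without tdTom- replicate 3 the log2 fold change of Maf was 1.62 and no longer passed (edgeR adjusted p = 0.0598). The Lyve1 and Stab2 calls held in all 13 alternatives, and those of the other 3 receptor genes depended on single libraries. Stab1 was lost without tdTom- replicate 1 or 3 (edgeR adjusted p = 0.0738 and 0.0661), Flt4 without any library but tdTom+ replicate 3 (0.058 to 0.106) and Nrp2 without any library but tdTom+ replicate 1 and tdTom- replicate 2 (0.0504 to 0.147). The count of 6 was 3 without tdTom- replicate 1, 2 without tdTom- replicate 3 and 4 without tdTom+ replicate 2. Foxc2, a lymphatic valve transcription factor gene, had 22.5 ± 5.0 CPM in tdTom+ against 34.8 ± 4.01 CPM in tdTom- libraries (SD, n = 3; edgeR adjusted p = 0.223), and Gata2 had 85.2 ± 3.27 and 98.9 ± 6.26 CPM (edgeR adjusted p = 0.517). Ccl21a, a chemokine gene of mature lymphatics, had 0 counts in all 6 libraries. The median log2 fold change over the 23 genes was 0.25. Csf1r, the macrophage receptor gene behind the reporter, had 65, 57 and 81 counts in tdTom+ and 41, 52 and 39 in tdTom- libraries. The part of macrophages in the levels of these genes was not tested.

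Lymphatic growth factor genes showed no called change. Of 9 genes 7 could be tested and 0 passed with edgeR, 0 at an unadjusted p under 0.05, 0 with DESeq2 and 0 with limma-voom, with a median log2 fold change of -0.05, whose sign changed among the alternatives. Vegfc, the ligand of FLT4, had 46.3 ± 11.1 CPM in tdTom+ against 54.1 ± 0.981 CPM in tdTom- libraries (SD, n = 3; edgeR adjusted p = 0.745), and Calcrl, the adrenomedullin receptor gene, 290 ± 17.8 and 256 ± 41.1 CPM (edgeR adjusted p = 0.645). Adamts14, a protease gene, had 7.43 ± 0.973 and 4.66 ± 1.1 CPM (SD, n = 3; edgeR adjusted p = 0.594).

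Of 20 other venous genes 19 were tested, 1 passed as higher and 0 as lower, beside 0.769% and 0.814% of all genes tested. Their median log2 fold change was -0.01, and its sign likewise changed among the alternatives. At an unadjusted p under 0.05 there were 7, beside 10.7% of all genes tested. DESeq2 called 4 and limma-voom 3, where these tools called 3.32% and 1.13% of all genes. The 1 was Dab2, an endocytic adaptor gene, with 358 ± 82.5 CPM in tdTom+ against 197 ± 6.32 CPM in tdTom- libraries (SD, n = 3; log2 fold change 0.86 ± 0.14, SE; edgeR adjusted p = 0.0138). Its call was lost without any 1 of the tdTom- libraries (edgeR adjusted p = 0.0624, 0.0658 and 0.1). Vcam1, a leukocyte adhesion gene, had 50.8 ± 6.51 and 24.6 ± 7.99 CPM and Slc38a5, an amino acid transporter gene, 21.2 ± 9.39 and 51.5 ± 5.93 CPM (SD, n = 3), and neither passed (edgeR adjusted p = 0.0564 and 0.0556), although DESeq2 called both. Tll1, a metalloprotease gene, had 45.5 ± 9.02 and 27.7 ± 2.0 CPM (edgeR adjusted p = 0.0879; DESeq2 adjusted p = 0.0183).

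The arterial genes, the programme that NR2F2 is known to hold down, had mostly log2 fold changes below 0. Of 20 tested genes 2 passed as lower and 0 as higher, beside 0.814% and 0.769% of all genes tested, with 17 log2 fold changes below 0, where 50% of all genes tested were above 0, and a median of -0.35. At an unadjusted p under 0.05 there were 11, beside 10.7% of all genes tested. DESeq2 called 8 and limma-voom 3, where these tools called 3.32% and 1.13% of all genes. Jag1, a Notch ligand gene, had 34.9 ± 2.88 CPM in tdTom+ against 71.1 ± 5.37 CPM in tdTom- libraries (SD, n = 3; log2 fold change -1.03 ± 0.13, SE; edgeR adjusted p = 0.00435), and the gap junction gene Gja4 passed as well. The Notch target genes Hey2 and Hey1 had 3.37 ± 3.1 against 16.9 ± 3.64 CPM and 64.2 ± 1.74 against 89.8 ± 11.4 CPM (SD, n = 3), and missed the threshold with edgeR (adjusted p = 0.0654 and 0.0987) while DESeq2 called both. The 2 arterial calls were matched by DESeq2, and that of Gja4 was lost without tdTom+ replicate 1 or any 1 of the tdTom- libraries (edgeR adjusted p from 0.0668 to 0.124).

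**Figure D5:**
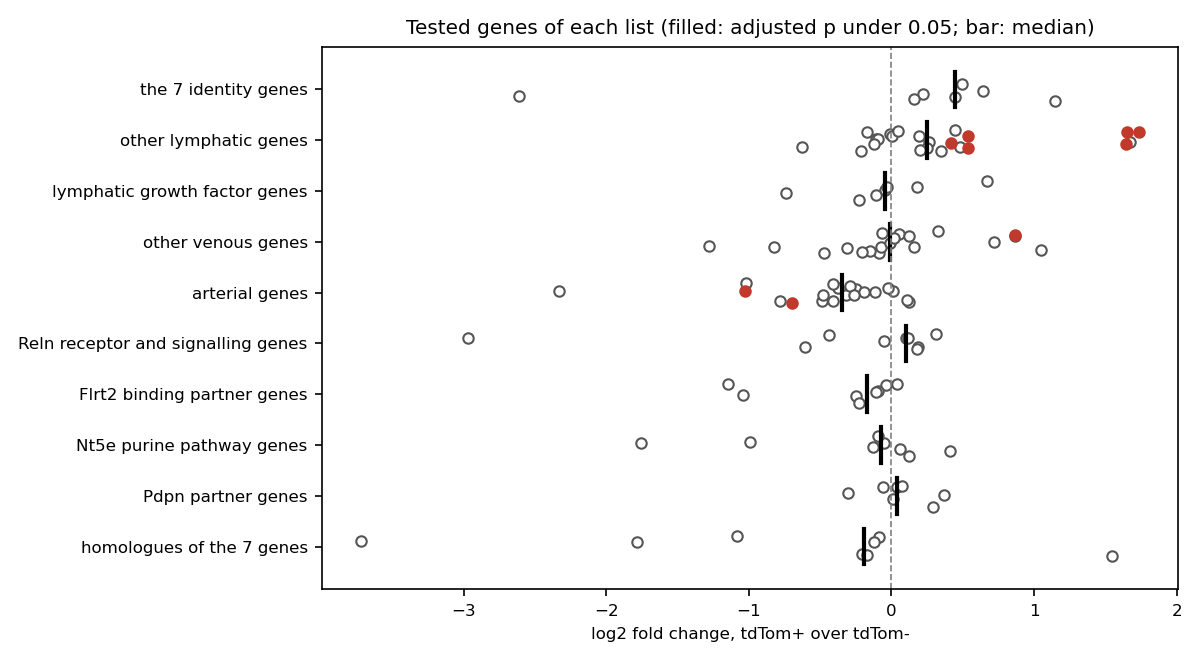
Log2 fold change (horizontal axis, tdTom+ over tdTom-) of every tested gene in the 7 identity genes and 9 lists of related genes; filled points passed the test and bars mark medians. Filled points are seen in the lymphatic list (6, to the right), the venous list (1, to the right) and the arterial list (2, to the left).

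Genes whose products act with reelin, FLRT2, CD73 or podoplanin were counted in 4 lists, in which edgeR called 0 of 32 tested genes. Of the reelin receptors and adaptors 0 of 9 passed: the receptor gene Lrp8 had 49.0 ± 7.32 CPM in tdTom+ against 74.5 ± 3.61 CPM in tdTom- libraries (SD, n = 3; edgeR adjusted p = 0.0614; DESeq2 adjusted p = 0.00639), and over all alternatives its adjusted p ran from 0.00639 to 0.263. In edgeR the log2 fold change of Lrp8 also passed with upper-quartile factors (adjusted p = 0.0499), without the low-count filter (0.0442), at a minimum count of 50 (0.0463) and without tdTom+ replicate 1 (0.0419). The adaptor gene Dab1 had 12, 0 and 1 counts against 33, 39 and 25. Of the receptors that bind FLRT proteins 0 of 8 tested passed, with Unc5b at 48.2 ± 2.44 and 57.2 ± 8.29 CPM (SD, n = 3). Of the genes around CD73 and adenosine 0 of 8 tested passed, with the adenosine deaminase gene Ada at 25.8 ± 2.83 and 19.4 ± 2.89 CPM (SD, n = 3). Of the podoplanin partners 0 of 7 passed, and Clec1b, the podoplanin receptor gene of platelets, had 69.5 ± 14.9 CPM in tdTom+ against 54.0 ± 10.9 CPM in tdTom- libraries (SD, n = 3; edgeR adjusted p = 0.543). At an unadjusted p under 0.05, 4 of the 32 tested genes of these 4 lists were found, near the 10.7% of all genes tested. DESeq2 called 1 and limma-voom 0, where these tools called 3.32% and 1.13% of all genes.

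The close homologues ranged widely in abundance. Mmrn2, Emilin1, Nr2f6 and Flrt3 had 415 to 528, 386 to 495, 114 to 158 and 38.8 to 65.8 CPM over the 6 libraries, and the groups overlapped in each. Of 9, 8 were tested and 0 passed with edgeR, with 1 at an unadjusted p under 0.05, beside 10.7% of all genes tested. DESeq2 called 1 and limma-voom 0, where these tools called 3.32% and 1.13% of all genes. Nr2f1, the sister gene of Nr2f2, had 32, 19 and 26 counts in tdTom+ and 61, 56 and 37 in tdTom- libraries, the reverse order of Nr2f2, with a log2 fold change of -1.08 ± 0.51 (SE) and an adjusted p of 0.498 by edgeR. Emilin3 and Emilin2, relatives of Mmrn1, had 11, 2 and 0 against 78, 29 and 51 counts and 39, 20 and 35 against 13, 5 and 11 counts, so that the groups stood apart in opposite directions. Their log2 fold changes of -3.72 ± 1.01 and 1.55 ± 0.74 (SE) did not pass with edgeR (adjusted p = 0.124 and 0.506), and DESeq2 called Emilin3.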

How the data were processed

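RNA was taken up with the RNeasy Micro Kit, amplified as cDNA with SMART-seq V4 and made into Nextera XT libraries, per the labels' protocols. This kit does not mark strand, and amplified reads without molecular identifiers are not independent molecules, so the limit given for a count of 0 covers counting error only. The submitters' processing notes name, with no role or order, featureCounts 1.4.6, Picard 2.7.1.1, STAR 2.5.2b, Trimmomatic 0.36.4, DESeq2 and the build mm10. The authors deposited raw counts per gene and library in 1 table, beside their log2 fold change and adjusted p-value. Its 6 normalized columns were not used.

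The counts were analysed in R 4.3.3 with edgeR 4.0.16: TMM factors, filterByExpr at 10 counts, a robust quasi-likelihood model without a block and a two-sided test, with Benjamini-Hochberg adjustment over 13142 genes at 0.05. SE comes from the log2 fold change and its F statistic. The fit was checked on simulated data. Alternatives were DESeq2 1.42.0, limma 3.58.1 (voom), other size factors and filters, a replicate block and leaving out each library. Libraries of a group differed by more than sampling noise (mean chi-square per gene 8.18 to 19.7). Named were the 7 genes, list genes that passed, up to 3 more per list with the smallest p, and the 2 genes most like each of the 7, of which 1 is not reported here. The genes and lists were chosen with earlier results of these data known. Older symbols were used where the table has them, and Muc16 was not matched.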

Additional observations from a re-analysis of the deposited data

How the results depend on the processing

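Of the 90 log2 fold changes of the 7 genes under 13 alternatives, 0 changed sign and 5 passed the threshold where the main analysis did not; Nt5e could not be tested at a minimum count of 50. The count of these genes passing as higher was 1 without the low-count filter and 2 with DESeq2. With the replicate number as a block it was again 2, Prox1 and Reln (edgeR adjusted p = 0.0463 and 0.0485). The block called 2.24% of all genes. Whether a number stands for an embryo is not labelled. After removal of the group means, libraries of equal number had r = 0.105, 0.089 and 0.161, and every library correlated best with its own number, which is a hint from the data and not the design. The libraries numbered 3 were also the only ones with more than 8 Xist counts in either group, a further hint of this kind. Leaving out 1 library gave 0 members in either direction. Over all genes, 211 were higher and 291 lower with DESeq2, 167 lower with the replicate block, and 37 to 97 higher and 25 to 92 lower with 1 library left out. Of the 120 related genes in 9 lists, 7 passed as higher and 2 as lower, beside 0.769% and 0.814% of all genes tested. The lower count was 4 with upper-quartile factors, 5 without the filter and 5 at a minimum count of 50. It was 11 with DESeq2, 4 with limma-voom and 5 with the replicate block. With 1 library left out 2 to 6 were higher and 1 to 4 lower. The log2 fold change of Lgals8, a podoplanin partner, was 0.292 and ranged from -0.0221 to 0.481 with 1 library left out; the log2 fold change of Krt19, a mesothelial marker, was 0.743 and ranged from -0.585 to 1.18. Both were below 0 only without tdTom+ replicate 1. The cause of these shifts was not tested. Depth limits Nt5e, with at most 68 counts in a library.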

Other observations

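The number of Prox1 counts per Nr2f2 count, which needs no scaling between libraries, was 0.567, 0.656 and 0.440 in the tdTom+ and 0.378, 0.533 and 0.504 in the tdTom- libraries 1 to 3. The groups overlapped in this ratio. Reln counts per Prox1 count were 0.426, 0.375 and 0.425 in tdTom+ and 0.321, 0.133 and 0.416 in tdTom- libraries, and overlapped as well. Xist, the RNA of the inactive X chromosome, had 1224 and 571 counts in the libraries numbered 3 of the tdTom+ and tdTom- groups and at most 8 in the others, so the sexes were split alike in both groups. Ddx3y, a gene of the Y chromosome, had 12 and 2 counts in these libraries and 1204 to 1537 in the others. The labels do not say whether the libraries numbered 3 came from 1 embryo.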
